A study of Caenorhabditis elegans with 2 samples.

Results

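The core and linker histone genes of Caenorhabditis elegans were described in a chromatin immunoprecipitation sequencing (ChIP-seq) study of the protein encoded by C17E4.6. The set was every protein-coding gene of the WBcel235 annotation named his- or hil- followed by a number, together with htas-1, and it held 81 of 19973 coding genes, with 72 his genes, 8 hil genes and htas-1. The H2A.Z gene htz-1 was not among them. The study had 1 group of 2 biological replicates, which were whole young adult worms of strain RW12293, aged 62 hours and synchronised by starving first-stage larvae after bleaching. All animals carried the allele st12293, in which CRISPR had added TY1, EGFP and 3xFLAG tags to C17E4.6 on chromosome I, and chromatin bound by the fusion was enriched with anti-GFP. Sex was not recorded, every tissue was pooled, and no untagged or input sample was analysed here.

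The data were peak lists, each peak with a position, a summit, a signal and a score given by the authors. The combined list, made from both replicates and kept at an irreproducible discovery rate (IDR) of 0.01, held 1017 peaks. The lists kept in the same way for each replicate alone held 570 peaks in replicate 1 and 414 in replicate 2, and the full ranked lists, with no threshold, held 43313 and 45592. The ranked lists therefore hold very weak peaks as well as strong ones. No list gave read counts, so the depth behind a peak is unknown, and signals are on the authors' own scale and are used to describe and rank peaks within a list. Marked genes are those with a summit in the main window, which runs over 500 bp before and 200 bp after the annotated 5' end. The wide window takes in 1000 bp before and 500 bp after it.

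Core histones form the octamer around which DNA is wrapped, made of H2A, H2B, H3 and H4, and linker histones of the H1 family bind where DNA enters and leaves it. Replication-type core histone genes are known for expression at the time of DNA synthesis and for transcripts that end in a stem-loop in place of a poly(A) tail, whereas H3.3-type genes supply histone outside replication. C17E4.6 encodes a relative of VPS72 (YL1), which in yeast and mammals is a subunit of complexes that exchange H2A for H2A.Z.

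By the product names of the RefSeq annotation the set held 18 H2A genes (htas-1 among them), 16 H2B genes, 15 H3 genes, 16 H4 genes, 5 genes of the H3.3 type, 9 linker genes (hil-1 to hil-8 and his-24) and 2 short genes, his-39 and his-73, annotated only as holding a histone domain. Members were chained where neighbouring 5' ends lay within 5 kb. There were 10 clusters of 3 or more genes with 57 members, 5 pairs with 10 members and 14 lone genes. The lone genes were 8 hil genes, his-24, htas-1, his-71, his-72, his-73 and his-74. In the clusters and pairs the genes mostly stood head to head, with 31 spacers of 227 to 368 bp (median 258) between facing 5' ends. Of these spacers, 16 lay between an H2A and an H2B gene, 14 between an H3 and an H4 gene, and 1 between the H4 gene his-67 and the H2A gene his-68.

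Many of these promoters are copies of each other. Of the 31 spacers, 16 had exactly the sequence of at least 1 other spacer, in 6 groups of up to 4 copies. The largest group was the 292 bp between his-51 and his-52, which recurred between his-53 and his-54, his-21 and his-22, and his-19 and his-20. The spacer between his-3 and his-4, of the same length, had 259 of its 292 bases (88.7%) in common with it. Both are shown, read from the H2A gene to the H2B gene (WBcel235; chrV:8850172-8850463 on the plus strand and chrV:16040516-16040807 on the minus strand), because the first occurs 4 times and the second only once. Capitals in the first mark matches, on either strand, to the run TATAAA, the run GTGTCCC or the run TCCCACC, and capitals in the second mark the 33 bases that do not align with the same base of the first.
his-51 to his-52: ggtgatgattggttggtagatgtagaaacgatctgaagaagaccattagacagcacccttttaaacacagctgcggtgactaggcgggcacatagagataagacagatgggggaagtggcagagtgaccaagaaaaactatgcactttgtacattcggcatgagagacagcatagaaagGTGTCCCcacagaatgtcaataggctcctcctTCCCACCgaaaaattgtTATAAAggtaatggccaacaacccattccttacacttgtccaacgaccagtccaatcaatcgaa
his-3 to his-4: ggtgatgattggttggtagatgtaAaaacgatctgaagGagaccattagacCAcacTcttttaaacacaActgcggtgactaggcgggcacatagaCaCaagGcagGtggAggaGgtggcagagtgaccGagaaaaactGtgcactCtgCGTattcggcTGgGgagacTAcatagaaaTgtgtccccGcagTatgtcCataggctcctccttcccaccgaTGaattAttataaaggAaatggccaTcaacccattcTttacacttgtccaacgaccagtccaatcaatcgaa
Identities between different H3 to H4 spacers ran from 54.2% to 99.6% (median 63.3% over 55 comparisons of 11 distinct sequences), and the identity that unrelated sequences reach was not measured. The spacers of his-45/his-46 and his-55/his-56, which lie in separate clusters on chromosome IV, shared 257 bases (99.6%). Among the 9 distinct H2A to H2B spacers identities ran from 45.5% to 95.5% (median 53.5%).

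The share of each main window that is unique in the genome was therefore measured as the percentage of its 50-base words that occur once in the reference on either strand. Of the 81 histone genes, 28 had at least 90% unique words, 21 lay in between and 32 had none. Among all coding genes 91.8% had at least 90% unique words and 232 had none. The histone genes with no unique word were 12 of the 13 genes of the chromosome II cluster, all 6 of the his-49 to his-54 cluster and 6 of the 8 genes of the neighbouring his-17 to his-28 cluster on chromosome V, and 8 genes on chromosome IV (his-29, his-30, his-33, his-34, his-57, his-58, his-65 and his-66). All 9 linker genes and all 5 H3.3-type genes had at least 90% unique words, while 11 of the 18 H2A and 11 of the 16 H2B genes had none.

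Histone genes with no unique word had no summit in the main window in any list, weak peaks included. A ranked summit of at least 1 replicate lay in the main window of 36 of the 81 histone genes (44.4%), against 48.8% of coding genes, and both replicates had one at 21 (25.9%), against 18.6%. By uniqueness these 36 were 22 of the 28 histone genes with at least 90% unique words (78.6%), against 49.7% of coding genes of that kind, 14 of the 21 in between (66.7%), against 44.9%, and 0 of the 32 with none, which allows a share of up to 9.38% by 3 counts. Among all coding genes with no unique word the share was 0%, 0 of 232, which allows up to 1.29%. These limits are for called summits and take genes as independent, which copies are not. They set no limit on the share of genes bound by the protein. In the wide window, which reaches into the flanks of a copy, 53 histone genes (65.4%) had a ranked summit in either replicate, against 71.1% of coding genes, with 27 of 28, 21 of 21 and 5 of 32 in the 3 classes of uniqueness, against 72.4%, 65.5% and 4.74% of coding genes. The 28 histone genes with none in the wide window were 27 of those without a unique word and htas-1, an H2A variant gene known from sperm, whose window was wholly unique. The sources used here do not say how reads that match several places were treated, so an absence of peaks at the copied genes does not show an absence of the protein.

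**Figure D1:**
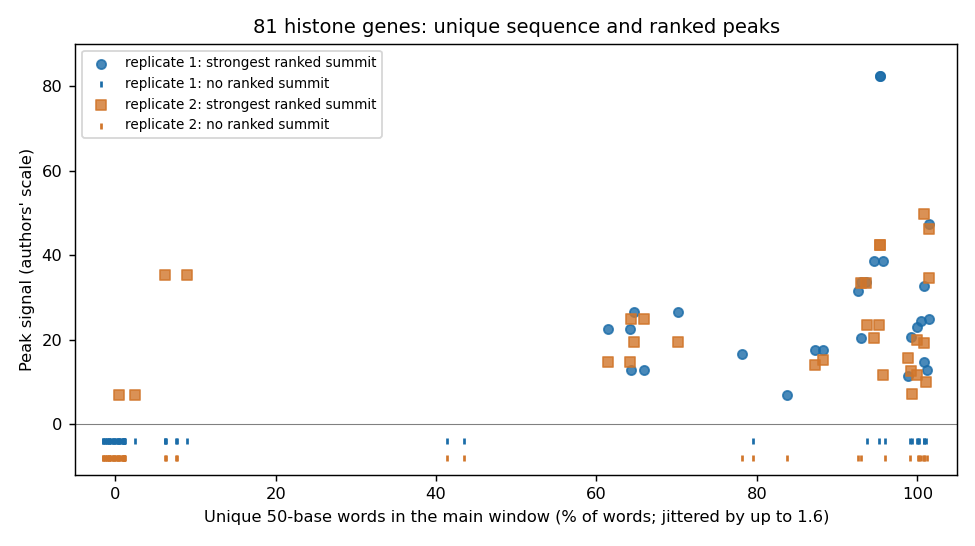
Each of the 81 histone genes by the percentage of 50-base words in its main window that occur once in the genome (x axis) and the signal of its strongest ranked summit there (y axis, authors' scale), with circles for replicate 1 and squares for replicate 2; ticks below 0 mark genes with no ranked summit. The 32 genes at 0% have no ranked summit, and the highest value is that of his-67 and his-68 in replicate 1 (82.4).

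In the thresholded data 7 histone genes (8.64%, 95% Wilson interval 4.25 to 16.8) were marked in the main window of the combined list, against 2.79% of coding genes. They were hil-4, hil-5, his-37, the pair his-67 and his-68, and his-59 and his-60, so 5 peaks marked 7 genes. All 7 had at least 90% unique words, so the count was 7 of 28 for such histone genes (25%), against 2.80% of such coding genes, and 0 of 21 for the histone genes in between, which allows up to 14.3%, against 3.21%. For genes with no unique word it was 0 of 32, against 0%. By arrangement 3 of 57 clustered genes (5.26%), 2 of 10 in pairs and 2 of 14 lone genes (14.3%) were marked, and 30 of the clustered genes but none of the lone ones had no unique word. In the wide window 15 histone genes (18.5%, 11.6 to 28.3) held a summit, against 3.74% of coding genes. Among genes with at least 90% unique words these were 9 of 28 histone genes, against 3.71%, and among those with none 2 of 32, against 0.862%. Neighbouring genes share peaks, so genes are not independent. The intervals take them as independent, so they understate even the counting error, and they cover no other error.

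**Figure D2:**
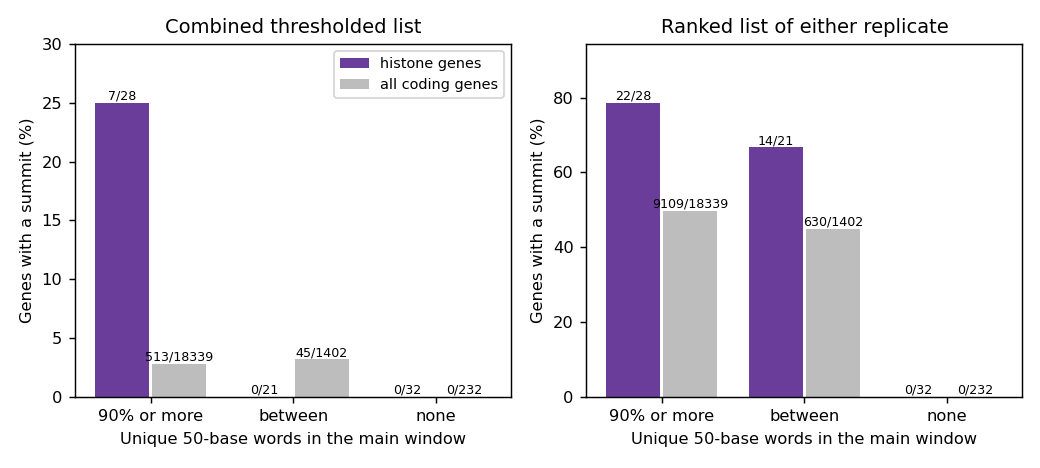
Percentage of genes with a summit in the main window, for histone genes (purple) and all coding genes (grey), by the share of unique 50-base words in that window, in the combined thresholded list (left) and in the ranked list of either replicate (right); counts stand above the bars. Of the histone genes with 90% or more unique words 25% were marked in the combined list, and no gene without a unique word had a summit in either panel.

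Each replicate alone marked fewer histone genes. Replicate 1 marked 3 in the main window (3.70%), against 1.72% of coding genes, and 8 in the wide window, against 2.34%. Replicate 2 marked 4 (4.94%), against 1.34%, and 8, against 1.82%. The genes his-67 and his-68 were marked in both replicates, his-37 was the third in replicate 1, and hil-4 and hil-5 were the others in replicate 2. Clustered genes thus had 1 marked in replicate 1 and 0 in replicate 2, and lone genes 0 in replicate 1 and 2 in replicate 2, so which arrangement held more marked genes turned on the replicate.

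The wide windows held 12 combined peaks. Their signals ran from 25.4 to 120, with a median of 75.9 against 79.9 for the whole combined list, and their ranks by signal ran from 189 to 970 of 1017. Histone peaks were thus not among the strongest of the list, and the median histone peak stood at rank 572. A ranked summit within 100 bp was found for 11 of the 12 in each replicate. With the score of 830 that the thresholded lists start at, 2 sites passed in both replicates and 4 passed in neither.

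**Figure D3:**
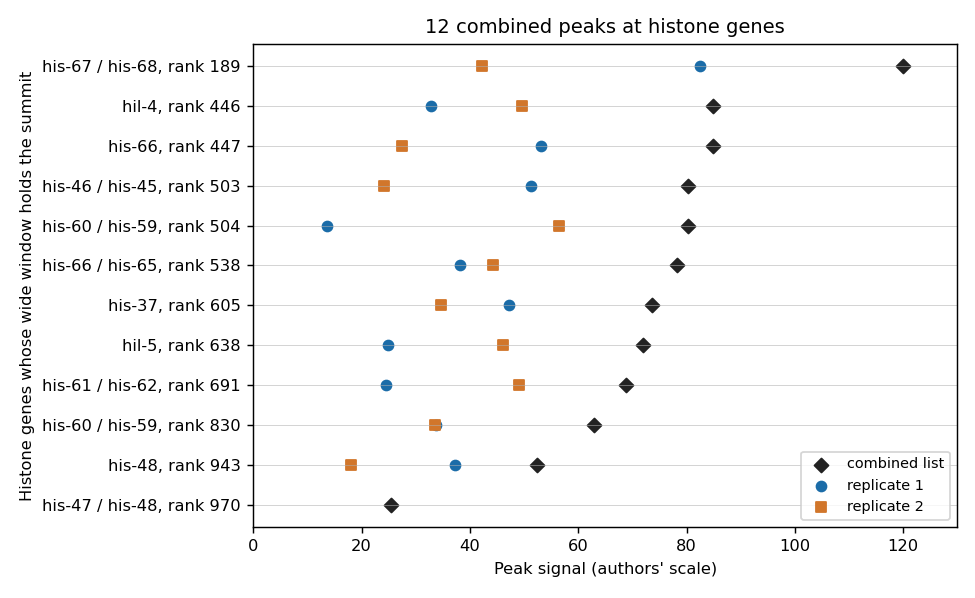
Signal (authors' scale) of the 12 combined peaks in the wide windows of histone genes, with diamonds for the combined list and, where a ranked summit lay within 100 bp, circles for replicate 1 and squares for replicate 2. The strongest is that of his-67 and his-68 (120 in the combined list), and the weakest, beside his-47 and his-48 (25.4), has no replicate value.

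The strongest peak lay in the spacer of his-67 and his-68, an H4 gene facing an H2A gene on chromosome I. Its signal was 120 in the combined list, 82.4 in replicate 1 and 42.3 in replicate 2, each with a score of 1000. The summit, at 9988969, was 206 bp upstream of his-67 (WBGene00001941) and 163 bp upstream of his-68 (WBGene00001942). This was the only one of the 31 spacers with a summit in the combined thresholded list. Of the 31, however, 17 held no unique word, and none of those 17 held a ranked summit of either replicate.

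Linker histone genes had 2 of 9 marked, hil-4 and hil-5. The peak at hil-4 (WBGene00001855, chromosome V, product Histone H1.4) had a signal of 84.9 in the combined list, 32.8 in replicate 1 and 49.7 in replicate 2, and in all 3 lists its summit lay at 4754308, 5 bp upstream of the 5' end. Its score was 552 in replicate 1, below the threshold, and 1000 in replicate 2. The peak at hil-5 (WBGene00001856, chromosome I, product Histone H1.5) lay inside the gene, 134 bp downstream of its 5' end, with a signal of 72 in the combined list, 24.9 in replicate 1 and 46.1 in replicate 2. Both of these peaks passed the threshold in replicate 2 and not in replicate 1. Farther into hil-4 there were 2 more combined thresholded peaks, outside its windows. The stronger had a signal of 102 with its summit 43 bp past the annotated 3' end, and it passed in both replicates, at 55.0 in replicate 1 and 48.3 in replicate 2. The weaker, inside the gene 607 bp downstream of its 5' end, had 61.1 and passed in neither replicate. The peak at the end of hil-4 thus had a higher combined signal than the one at its start.

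The other linker genes had weak ranked summits or none in the main window. hil-7 had signals of 23.1 in replicate 1 and 20 in replicate 2, with summits at different places, 479 bp and 56 bp upstream. The gene his-24, another H1 gene, had 24.4 and hil-3 had 12.7 in replicate 1 with none in replicate 2, and hil-1 and hil-2 had 11.6 and 7.10 in replicate 2 with none in replicate 1. For hil-6 and hil-8 neither replicate had a ranked summit in the main window.

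Among the lone and loosely clustered core genes, his-37 had a promoter peak. The gene (WBGene00001911, chromosome V, an H4 gene in a cluster of 3 with his-35 and his-41) had a signal of 73.7 in the combined list, 47.3 in replicate 1 with a score of 1000, and 34.6 in replicate 2 with a score of 468. Its summit, at 9547015, was 90 bp upstream of the 5' end. The head-to-head neighbours his-35 and his-41, with 99.8% unique words each, had no ranked summit in the main window in either replicate. The upstream sequences of the 2 uniquely mappable single promoters with a summit just upstream of the gene are shown (WBcel235, plus strand, chrV:4754163-4754312 and chrV:9546855-9547104), with matches on either strand to those runs, or to the run TTGGCGC, in capitals.
hil-4: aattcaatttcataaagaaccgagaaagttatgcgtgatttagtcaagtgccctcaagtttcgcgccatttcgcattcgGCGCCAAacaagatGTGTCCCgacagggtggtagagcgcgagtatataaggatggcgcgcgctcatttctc
his-37: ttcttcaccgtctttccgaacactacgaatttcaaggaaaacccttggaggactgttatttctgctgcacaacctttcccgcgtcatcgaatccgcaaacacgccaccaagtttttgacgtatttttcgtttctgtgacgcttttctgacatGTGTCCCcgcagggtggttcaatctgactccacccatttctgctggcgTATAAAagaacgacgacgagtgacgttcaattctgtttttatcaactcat
Both hold GTGTCCC, which starts 57 bp upstream of hil-4 and 98 bp upstream of his-37. In his-37 the run stands beside the summit, and in hil-4 the summit is nearer to the gene than the run.

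None of the 5 H3.3-type genes was marked, in the main or the wide window, although all had 100% unique words. A count of 0 of 5 allows a share of up to 60%, so a share like that of the other unique histone genes could not be told from this. These genes encode the H3 variant that replaces H3 outside replication. In the main window his-72 had ranked signals of 14.8 in replicate 1 and 19.1 in replicate 2, and his-71 had none in replicate 1 and 10 in replicate 2. For his-70 the signals were 20.7 in replicate 1 and 12.5 in replicate 2, for his-74 they were 11.5 and 15.7, and his-69 had none. The medians of the whole ranked lists were 15.5 in replicate 1 and 13.8 in replicate 2. Beyond its main window his-72 had stronger summits in the combined ranked list that did not pass the threshold. A summit 510 bp downstream of its 5' end, outside the wide window, had a signal of 58.6 with a score of 824, just below the threshold. The replicate signals there were 41.2 in replicate 1 (score 816) and 15.9 in replicate 2 (score 88). Upstream, inside the wide window, a summit had 47.2 (score 389), with 30.7 in replicate 1 and 19.1 in replicate 2. Outside both windows, his-74 had a combined thresholded peak with its summit 55 bp past the annotated 3' end, 681 bp downstream of the 5' end. Its signal was 65.0 with a score of 988, and the ranked summits within 100 bp of it had signals of 26.7 in replicate 1 (score 284) and 41.8 in replicate 2 (score 928). The peak thus passed the threshold in replicate 2 alone.

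The cluster with the most marked genes was the quartet of his-61 (H2A), his-62 (H2B), his-60 (H4) and his-59 (H3) on chromosome IV, where 96.0% of words in and around the quartet were unique. It held 3 combined peaks in the wide windows of its genes, and none of them lay in a spacer. The peak inside his-62, 272 bp downstream of its 5' end, had a combined signal of 68.9, with 24.6 in replicate 1 and 49.1 in replicate 2. The peak inside his-60, 111 bp downstream of its 5' end, had 62.9, with 33.7 in replicate 1 and 33.5 in replicate 2. It also marked his-59, being 368 bp upstream of that gene.

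The third peak of the quartet lay past the end of his-59. Its signal was 80.2 and its summit lay 28 bp past the annotated 3' end, with 13.6 in replicate 1 and 56.4 in replicate 2. Replicate 2 placed that summit inside the gene, 388 bp downstream of the 5' end, and replicate 1 had a second, stronger summit inside it, 265 bp downstream, with a signal of 27.1. The replicates thus differed in where they placed the summit, over a stretch from the body of his-59 to just past its end. The spacer of his-61 and his-62 held a ranked summit in each replicate, at 38.6 in replicate 1 and 11.6 in replicate 2, both below the threshold. The wholly unique spacer of his-59 and his-60 held none in either, and it is shown from the H3 gene to the H4 gene (chrIV:7487993-7488248, minus strand), with the same matches in capitals as above.
his-59 to his-60: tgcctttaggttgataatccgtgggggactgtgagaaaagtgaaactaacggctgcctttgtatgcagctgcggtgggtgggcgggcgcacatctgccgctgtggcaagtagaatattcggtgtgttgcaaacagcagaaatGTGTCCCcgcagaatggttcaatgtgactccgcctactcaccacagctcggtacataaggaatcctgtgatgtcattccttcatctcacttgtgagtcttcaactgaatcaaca
The run GTGTCCC is present here too, in a spacer without a ranked summit.

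**Figure D4:**
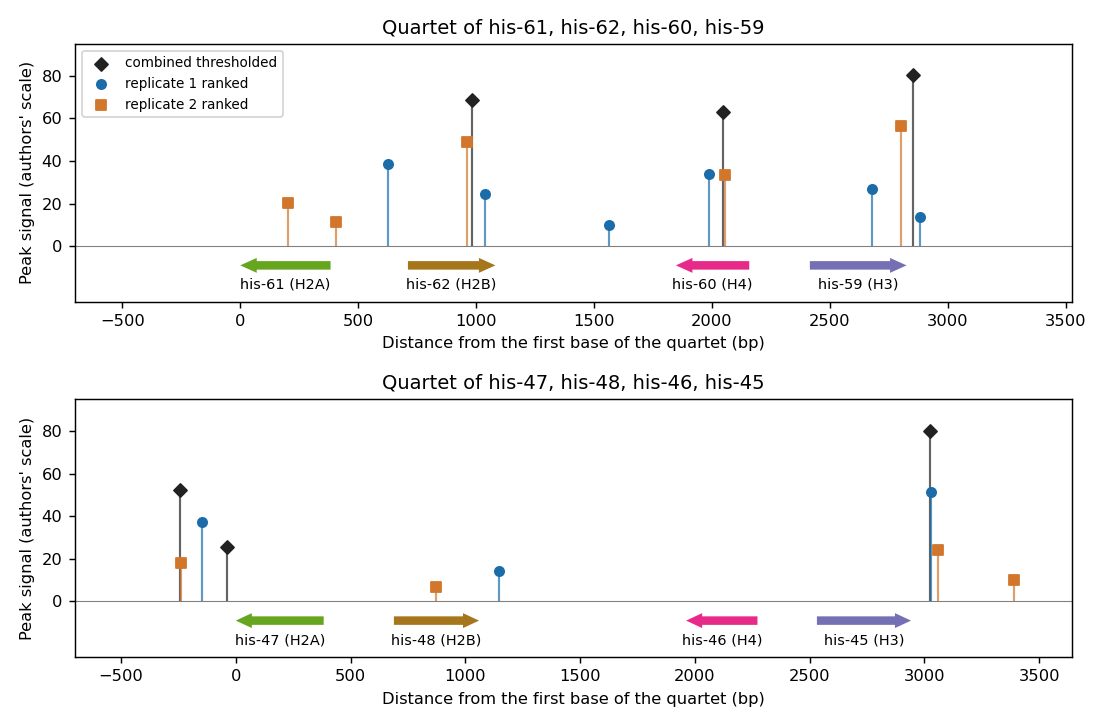
Summits in and around the quartets of his-59 to his-62 (top) and his-45 to his-48 (bottom), with distance from the first base of the quartet in bp on the x axis and signal (authors' scale) on the y axis; diamonds are combined thresholded peaks, circles and squares are ranked summits of replicates 1 and 2, and arrows are genes drawn in the direction of transcription. The combined peaks stand over gene bodies or past 3' ends, at 68.9, 62.9 and 80.2 in the top quartet and at 52.4, 25.4 and 80.2 in the bottom one.

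Similar peaks past 3' ends were found at the copied genes of chromosome IV between his-47 and his-66. The peak 81 bp past the 3' end of his-45, an H3 gene, had a combined signal of 80.2, with 51.2 in replicate 1 and 24.2 in replicate 2. A peak with a signal of 78.2 lay 74 bp past the end of his-66, an H2B gene, with 38.1 in replicate 1 and 44.3 in replicate 2. On the other side of that pair a peak with a signal of 84.8 lay 273 bp past the end of his-65, an H2A gene, with 53.2 in replicate 1 and 27.5 in replicate 2. Past the end of his-47, an H2A gene, there were 2 peaks, at 241 bp with a signal of 52.4 and at 37 bp with a signal of 25.4. The weaker overlapped the stronger, had a deposited −log10 of q of 0.0705 and stood at rank 24268 of 65464 in the combined ranked list. It had no ranked summit within 100 bp in either replicate. It was also the only combined thresholded summit in the wide window of his-47. At the main windows of his-45 to his-48 and of his-65 and his-66 at most 7.67% of words were unique, whereas 59.1% to 100% of the words in these 5 peaks were unique. The only ranked summit of a replicate in those main windows was a weak one in the body of his-48, with a signal of 6.80 in replicate 2, which also counts for his-47. The part that uniqueness plays in where these peaks stand was not tested. The peak past his-45 also lay upstream of another coding gene, B0035.21.

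Counted over all 12 combined peaks, 6 had their summit within 300 bp past a histone gene's 3' end, 3 inside a histone gene and 1 in a spacer. The other 2 lay just upstream of hil-4 (5 bp) and his-37 (90 bp), which face no histone gene across a spacer. A further 5 combined peaks lay within 1000 bp of a histone gene or cluster but in no wide window, 2 of them past the 3' ends of hil-4 and his-74, 1 inside hil-4 and 2 farther past the ends of his-55 and his-59, so that 8 combined peaks in all lay within 300 bp past a 3' end. In the thresholded lists of single replicates, 3 of the 6 peaks of replicate 1 in the wide windows lay past 3' ends and 0 of the 5 of replicate 2 did, but with peaks outside the windows the counts were 4 in replicate 1 and 2 in replicate 2. Within 500 bp of the 5' ends of the 64 core histone genes in clusters and pairs, 4 of 10 gene and summit combinations (40%) lay upstream in the combined thresholded list, against 82.7% for all coding genes. In the combined ranked list the upstream share was 34.2% for these histone genes, against 48.1% for all coding genes. In the ranked list of replicate 1 it was 37.1%, against 49.6%, and in that of replicate 2 it was 44.7%, against 48.8%. Histone spacers are shorter than 500 bp, so a summit inside one gene also counts as upstream of its neighbour. These shares were not adjusted for unique sequence. In the combined thresholded list the downstream combinations of his-45, his-47 and his-66 came from genes with at most 7.67% unique words in the main window. The genes of the other combinations, upstream and downstream, had at least 90%, as did 91.8% of all coding genes.

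Ranked peaks were not sparse where clustered core histone genes could be seen. In the clusters and pairs of core genes with 300 bp on either side, 36.9% of 62475 bases were at the centre of a unique word, against 93.5% of the nuclear genome. The combined ranked list had 41 summits there, which is 1.78 per kb of unique sequence, against 0.698 in the genome. The genome value counts every summit of the list, at a unique word or not. Per kb of unique sequence the spacers had 0.959 ranked summits, from only 3 summits, gene bodies 2.16 and the stretches past 3' ends 1.88. In replicate 1 these densities were 0.959, 1.78 and 1.57. In replicate 2 they were 1.28, 2.41 and 1.26, so spacers did not lie below the stretches past 3' ends there. The combined thresholded list had 10 summits in these regions, or 0.433 per kb of unique sequence, against 0.0108 in the genome. Peaks lie by genes more often than the genome average, so these densities describe the regions and do not set histone genes apart from other genes.

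Several clusters and pairs, among them his-69 and his-70 described above, had ranked peaks but none in the combined thresholded list. They differed in how much of their sequence was unique. The quartet of his-1 to his-4 on chromosome V had 88.5% unique words in and around it and no thresholded peak. In its spacer between his-3 and his-4, shown above, ranked summits had signals of 12.7 in replicate 1 and 24.8 in replicate 2. The neighbouring spacer of his-1 and his-2 held none. The cluster of his-5 to his-8 and his-39 had a summit inside his-6, at 26.5 in replicate 1 and 19.5 in replicate 2. On chromosome X the pair his-38 and his-40 had ranked summits in replicate 1 alone, at 31.5 and 20.3 in the main windows. The pair his-63 and his-64 on chromosome IV had 68.8% unique words in and around it. In its wide windows the strongest ranked summits had signals of 40.7 in replicate 1 (score 786) and 18.5 in replicate 2 (score 479). None of these passed the threshold. The little that was unique at his-17 and his-18, 9.66% and 7.06% of words, held a summit of replicate 2 with a signal of 35.3 and rank 713 of 45592, which missed the threshold with a score of 609, and replicate 1 had none. At the edge of the chromosome II cluster a second thresholded list of the authors, the conservative one, held a peak 833 bp upstream of his-42, an H3 gene, with a signal of 74.2. The ranked signals there were 39.4 in replicate 1 and 35.5 in replicate 2, and a small nuclear RNA gene, C47F8.9, starts closer to that summit than his-42 does.

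By class, 3 of 16 H4 genes, 1 of 15 H3 genes, 1 of 18 H2A genes and 0 of 16 H2B genes were marked in the main window of the combined list, against 2.79% of coding genes. A count of 0 of 16 allows a share of up to 18.8%. In the wide window the counts were 4 for H4, 2 for H3, 4 for H2A and 3 for H2B, against 3.74% of coding genes. The classes were not seen equally well, since 5 of the 15 H3 and 5 of the 16 H4 genes had no unique word, against 11 of the 18 H2A and 11 of the 16 H2B genes.

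A short run of bases was common in histone promoters and rare in others. The letters GTGTCCC, on either strand, occurred in the 250 bases upstream of 54 of the 81 histone genes (66.7%) and of 1.32% of all coding genes. They were found upstream of 15 of 18 H2A, 14 of 16 H2B, 9 of 15 H3, 11 of 16 H4 and 5 of 9 linker genes, and of none of the 5 H3.3-type genes. At hil-2, hil-4 and hil-5 the run began at the same place, 57 bp upstream of the 5' end, and at his-24 it began 59 bp upstream. The letters TCCCACC occurred at 34 histone genes (42%) and 2.05% of coding genes, and TATAAA at 51 (63%) and 35.2%. The letters TTGGCGC, an E2F-type motif, occurred at 1 (a linker gene) and 1.84%. Copied promoters count more than once here, and among the 60 distinct histone promoters GTGTCCC was in 33 (55.0%), TCCCACC in 18 (30%) and TATAAA in 36 (60%). The runs GTGTCCC and TCCCACC were chosen after the sequences were read. All 32 genes without a unique word held GTGTCCC. Of the 28 with at least 90% unique words 14 did, which were all 7 marked genes and 7 of the 21 that were not marked. This split was noticed in these data and was not tested, and neighbouring genes share both the run and the peak. The median GC content of these stretches was 46% for histone genes, against 33.2% for all coding genes.

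A list of 17 genes that handle histones or encode variants was made by hand, with earlier results of these data known. Its shares therefore describe the list alone. Of these 17 genes, 3 (17.6%) were marked in the main window of the combined list, against 2.79% of coding genes, and 4 in the wide window, against 3.74%. Those of the main window were unc-85, an Asf1-type chaperone of H3 and H4 (signal 239, with 129 in replicate 1 and 115 in replicate 2), lin-53, an RbAp48-type histone-binding protein (190, with 90.7 in replicate 1 and 88.2 in replicate 2), and htz-1, which encodes H2A.Z (120, with 82.9 in replicate 1 and 36.5 in replicate 2). The centromeric H3 variant gene hcp-3 held a combined thresholded summit in the wide window alone, 665 bp upstream, with a signal of 242. Whether another gene starts nearer to that summit was not examined. In the main window of hcp-3 the ranked signals were 19.7 in replicate 1 and 29.6 in replicate 2. At cdl-1, which encodes the stem-loop binding protein of histone transcripts, neither replicate had a ranked summit in the main window. The combined signals at unc-85 and lin-53, and that of the summit upstream of hcp-3, were above that of every histone gene.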

How the data were processed

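The peak lists were used as deposited by the authors. Per the labels the assembly was ce11, which is the sequence of WBcel235, and no peak ran beyond a chromosome end of that reference. The sources used here name no aligner and no peak caller. Per the text files deposited with the lists, 1 further source went into the thresholded lists but not into the ranked ones. How it was used is not stated. The combined thresholded list lacked 70 ranked peaks with a passing score, and 0 of these lay in the wide window of a histone gene. The signal is the authors' value per peak on a scale that is not stated. The score deposited by the authors follows the IDR, with a cap of 1000, and 830 is an IDR of 0.01. The deposited −log10 of q served to break ties of signal. Summits were set from the deposited offset. In the 2 combined ranked lists 16 columns with no sample label were not used.

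Genes came from Ensembl release 115. That annotation gives 36 of the 81 histone genes a name that another one also has, so the symbols and product names of RefSeq were used, matched by gene ID for all 81. For 65 of them the annotated 5' end is the first coding base, so the start of transcription lies upstream. Words of 50 bases were counted over the whole reference (Python 3.11.15, numpy 2.4.6), spacers were aligned with Biopython 1.88, and the assignment of summits and words was tested on simulated data. Wilson intervals are at 95%. No test was made, because peak lists hold no counts, there is 1 group, and neighbouring genes share peaks. The genes named are those with a wide-window summit in a thresholded list, the 5 of highest signal in each ranked list, the H3.3-type genes his-69 to his-72, the linker genes, htas-1, and the marked histone-handling genes with cdl-1 and htz-1. Other genes, among them his-74, his-42, his-55, his-63, his-64, and those of chromosome X and of the his-1 to his-8 clusters, were named after their values were seen. The members and lists were chosen with earlier results of these data known, and the 300 bp stretch past 3' ends after the peaks were seen.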

Additional observations from a re-analysis of the deposited data

How the results depend on the processing

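Of the 7 histone genes marked in the main window 3 were left when only the stronger 508 combined peaks were used, 4 with a window of 250 bp upstream to 100 bp downstream, and 3 to 4 with either replicate left out. Of the 15 in the wide window 8 were left with the stronger peaks and 8 with either replicate left out. Clustered genes had 0 to 1 marked with a replicate left out, and lone genes 0 to 2, and 1 with the conservative list. Both replicates had a ranked summit in the main window at 21 genes, at 3 with a score of 540 or more (an IDR of 0.05), and in the wide window at 40. With words of 36 bases 18 genes had at least 90% unique words, 4 of them marked, and the 7 marked of 28 became 3 to 4 with a replicate left out. The 6 peaks of the wide windows past 3' ends became 3 with the conservative list and 0 to 3 with a replicate left out. The alternatives on marked genes of unique promoters and on 3' ends were chosen after seeing the data. The causes of these moves were not tested. The other 22 recomputed counts, with further gene ends, overlaps, chaining distances and word lengths among their settings, stayed within 1.5 times the reported one. No paired analysis was possible because the samples form 1 group. The depth is unknown, so a missing peak is no measure of absence.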
